A study of Rattus norvegicus with 15 samples.

Results

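The comparison described here is that of primary rat brain microvascular endothelial cells (BMECs) 12 h after x-rays (a dose of 5 Gy) with unexposed control cells. Its members are the 6 libraries whose titles name these groups, 3 per group, of 15 libraries in the whole data set. The genes described are the 17895 of 37367 whose FPKM, summed over all transcripts of the gene, averaged at least 0.5 over the 15 libraries. FPKM is a read density, scaled to transcript length and to sequencing depth. BMECs line the small vessels of the brain and form the blood-brain barrier. The study asked how their transcriptome changes with the dose and with the time after irradiation.

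All 6 libraries came from cells of littermate Spraque-Dawley rats (as the labels spell it) aged 2 to 3 weeks, with the sexes in equal parts. The labels name no transgene, deletion or drug in any group. The exposed cells were irradiated at 2.5 Gy per minute with a linear accelerator when they covered 60% of the dish, and were collected 12 h later. The control cells were cultured for 12 h and handled in the same way without the beam. The study calls the 3 libraries of a group biological replicates, but the labels do not tie a library to an animal or a culture, so a p-value measures the spread between these libraries, which may be technical. The libraries of 20 Gy at 12 h and of 5 Gy at 24 h, 3 each, are described below only in direct tests against 5 Gy at 12 h, but all 15 libraries entered the filter and the estimate of the spread in every limma test.

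The 6 libraries held 6.23 to 6.80 gigabases of aligned sequence, as read from the steps between low FPKM values. In a principal component analysis of these libraries alone, the first component carried 44.8% of the variance, with the controls at -37.4 to -24.0 and the exposed libraries at 23.6 to 43.2. On the second component, which carried 16.9%, exposed replicate 3 lay at 30.6, while exposed replicates 1 and 2 lay at -27.0 and -16.5 and the controls between -9.96 and 14.1. Results that depend on exposed replicate 3 are therefore also given without it. The median log2(FPKM + 1) of a library averaged 2.68 ± 0.018 (SD, n = 3) over the controls and 2.70 ± 0.012 over the exposed libraries, a difference of 0.019 with a two-sided exact permutation p of 0.2, where 0.1 is the smallest possible with 3 libraries against 3.

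The cell type given in the labels was compared with marker genes. Of 22 endothelial markers, 20 were in the table by name, and 13 of these had a mean below 0.5 FPKM in the 6 libraries. Tie1, Emcn, Erg, Sox17 and Robo4 were listed at 0 in all 6. Cdh5, which encodes the cadherin of endothelial junctions, averaged 0.191 FPKM in the control and 0.0552 in the exposed libraries, and the tight junction gene Cldn5 averaged 0.0109 and 0. Flt1, which encodes a VEGF receptor, was at 2.84 and 2.72 FPKM, and Slc2a1, the glucose transporter of the barrier, at 23.6 and 14.2. Of the other listed markers, Ocln was at 1.89 and 2.08 FPKM and Egfl7 at 2.52 and 2.06. Eng ranged from 0 to 12.0 FPKM over the 6 libraries. Kdr, at 0.812 and 0.657, and Plvap, at 0.818 and 0.632, also averaged above 0.5 FPKM in both groups. By contrast, 11 of 13 fibroblast and meningeal markers were above the filter. Their summed level was 2311 to 2637 FPKM in the control and 2169 to 2229 in the exposed libraries, with Col1a1 at 516 and 319 and Fbln1 at 502 and 621. Cdh5, Cldn5, Tie1 and Erg, which define endothelial cells, were thus listed at or near 0 in both groups. Sums by gene name can miss reads held by transcripts without a name, and the cells are called BMECs below only because the labels do so.

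The summed level of the endothelial markers was 28.9 to 44.6 FPKM in the control and 19.4 to 37.8 in the exposed libraries, and these ranges overlap. Pericyte and smooth muscle markers, of which 7 of 12 were tested, summed to 154.9 to 162.5 and 105.8 to 128.2 FPKM. Pdgfrb averaged 44.5 and 34.2, and Kcnj8, Abcc9 and Higd1b were listed at 0. The 9 astrocyte markers summed to 518 to 766 and 631 to 1182 FPKM, most of it Gja1, with Gfap at 0.119 and 0.0268 and with Aqp4 and Sox9 at 0. The 9 neuron markers summed to 61.0 to 74.9 and 27.5 to 44.1 FPKM, with Rbfox3 at 0. The 9 oligodendrocyte markers summed to 22.2 to 24.2 and 25.5 to 26.9 FPKM, nearly all Cnp, with Mbp and Mog at 0. The 10 microglia markers summed to 22.1 to 28.2 and 15.9 to 19.1 FPKM, nearly all Tmem119, with Ptprc, Cx3cr1 and Trem2 at 0. Over the 7 marker lists, 6 genes passed the threshold that is defined below. Slc2a1, Dcn, Col1a1 and Stmn2 were lower after irradiation, and Notch3 and Aldh1l1 were higher. Notch3 was at low levels, at 0.153 and 0.832 FPKM. Aldh1l1 had a mean 2.51 times that of the controls (log2 fold change -0.71 with annotated transcripts only). Without exposed replicate 3, Col1a1 (-0.56) and Stmn2 (-0.73) did not pass. The part of a change in the mix of cells in the results below was not tested, and in bulk RNA fewer cells of a type and less RNA per cell cannot be told apart.

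Ionizing radiation breaks DNA. Damage activates the kinase ATM and the transcription factor p53, which turns on genes that stop the cell cycle, repair DNA or start cell death, and p21, the product of Cdkn1a, then holds E2F factors and the DREAM complex in a state that silences genes of DNA replication and mitosis. E2F binding sites are found near the start of S phase genes, and the CHR element together with CCAAT boxes near the start of mitotic genes. The serum response factor SRF binds the CArG box near immediate early genes, and SREBP factors, helped by the CCAAT-binding factor NF-Y, drive cholesterol synthesis.

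Because genes of these classes moved in groups, the promoter windows were searched for these letters on both strands. Windows of 300 bases, from 250 before to 50 after the start of the gene, were taken from RefSeq on the build GRCr8, which is not the build of the FPKM table, and 8977 of the genes tested matched one by symbol. Each example is the member of its list with the largest fall that passed the threshold defined below, held the letters and was not on chromosome 18. The examples were thus picked for a match, and members that fell more were passed over, such as Rrm2 and Uhrf1 before Mcm5. The sequences below show 1 gene of each falling group, 5′ to 3′, with the matched letters in capitals. They are Mcm5, a subunit of the replicative helicase, at chr19:13488563-13488862 on the plus strand with 2 E2F matches (TTCCCGC or TTGGCGC), Ttk, a kinase of the spindle checkpoint, at chr8:93634389-93634688 on the plus strand with a CHR match (TTTGAA), Egr2, a zinc finger transcription factor, at chr20:21054392-21054691 on the minus strand with a CArG box, and Insig1, the sterol-sensing brake on SREBP, at chr4:8057720-8058019 on the minus strand with a CCAAT match. A match to the opposite strand appears as the reverse complement.
Mcm5: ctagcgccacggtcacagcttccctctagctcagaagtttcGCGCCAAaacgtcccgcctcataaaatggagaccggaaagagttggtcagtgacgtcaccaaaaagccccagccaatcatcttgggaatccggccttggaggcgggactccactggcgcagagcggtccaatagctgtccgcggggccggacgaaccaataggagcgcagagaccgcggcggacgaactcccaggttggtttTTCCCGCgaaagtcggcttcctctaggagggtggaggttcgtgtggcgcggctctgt
Ttk: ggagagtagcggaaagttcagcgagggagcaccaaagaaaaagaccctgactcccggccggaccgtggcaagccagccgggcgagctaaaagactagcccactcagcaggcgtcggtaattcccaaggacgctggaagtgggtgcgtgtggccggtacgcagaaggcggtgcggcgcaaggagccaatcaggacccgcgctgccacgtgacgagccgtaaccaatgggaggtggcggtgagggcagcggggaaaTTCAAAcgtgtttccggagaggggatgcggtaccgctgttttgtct
Egr2: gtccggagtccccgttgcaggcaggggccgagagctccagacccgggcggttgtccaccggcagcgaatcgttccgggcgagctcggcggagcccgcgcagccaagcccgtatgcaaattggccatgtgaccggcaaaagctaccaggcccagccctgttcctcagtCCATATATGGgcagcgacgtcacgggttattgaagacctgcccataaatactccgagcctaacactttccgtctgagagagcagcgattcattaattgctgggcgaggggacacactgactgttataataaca
Insig1: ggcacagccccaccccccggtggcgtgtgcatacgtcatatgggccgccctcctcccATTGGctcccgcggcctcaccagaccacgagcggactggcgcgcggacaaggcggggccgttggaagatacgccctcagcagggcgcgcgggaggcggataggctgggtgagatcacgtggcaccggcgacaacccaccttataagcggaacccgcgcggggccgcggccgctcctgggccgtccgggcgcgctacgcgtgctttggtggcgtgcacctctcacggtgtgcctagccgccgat

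The E2F letters were in 16 of 25 windows of the S phase list (64.0%), against 6.26% of all 33469 windows and 12.7% of those of the genes tested. The CHR letters were in 22 of 31 windows of the mitosis list (71.0%), against 18.3% and 11.3%, and in 1 of 25 of the S phase list. CCAAT was in 14 of 16 windows of the cholesterol list (87.5%), 24 of 31 of the mitosis list (77.4%) and 17 of 25 of the S phase list (68.0%), against 37.5% and 38.2%. The CArG box was in 5 of 21 windows of the immediate early list (23.8%), against 1.64% and 1.20%. The p53 half-site was in 7 of 26 windows of the p53 list (26.9%), against 7.98% and 6.52%. The letters CACCCCA, found in sterol response elements, were in 1 of 16 windows of the cholesterol list (6.25%), against 6.93% and 6.59%. Matches of different motifs were counted separately and may overlap. These are matches of letters, and no binding was measured.

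At 12 h after 5 Gy, 1779 of the 17895 genes tested (9.94%) passed the threshold, which was an adjusted p below 0.05 in limma and a fold change of at least 1.5. FPKM were higher for 892 genes (4.98%) and lower for 887 (4.96%). The groups did not overlap for 38.5% of all genes tested, with the exposed libraries all above the controls for 21.6% and all below for 16.9%. Of 13081 genes with a name, 1269 passed (9.7%), 586 higher (4.48%) and 683 lower (5.22%). Of 4814 loci assembled from the reads without a name, 510 passed (10.6%), 306 higher (6.36%) and 204 lower (4.24%). Changes of at least 2-fold were less even, with 213 genes higher and 375 lower. Over all genes, the median log2 fold change was 0.03. Fold changes were taken on log2(FPKM + 1), which understates the change of genes with a low FPKM.

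Genes were then read in 19 lists of pathways. Most members passed as lower in the lists of DNA replication, mitosis and cholesterol synthesis, and as higher in that of p53 targets. In either direction, 9.94% of all genes tested passed. The share was 93.55% for S phase, 77.1% for mitosis, 69.6% for cholesterol synthesis and 58.1% for p53 targets. It was 41.9% for immediate early genes, 40.0% for SRF and YAP targets, 31.6% for clock genes and 30.4% for Wnt and Notch. It was 28.6% for break repair, 28.0% for ER stress, 27.8% for inflammation, 25.0% for TGF-beta and BMP, 21.1% for NRF2 and 4.35% for heat shock. No ribosomal protein gene of 30 passed the threshold, and their median log2 fold change was -0.03.

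**Figure D1:**
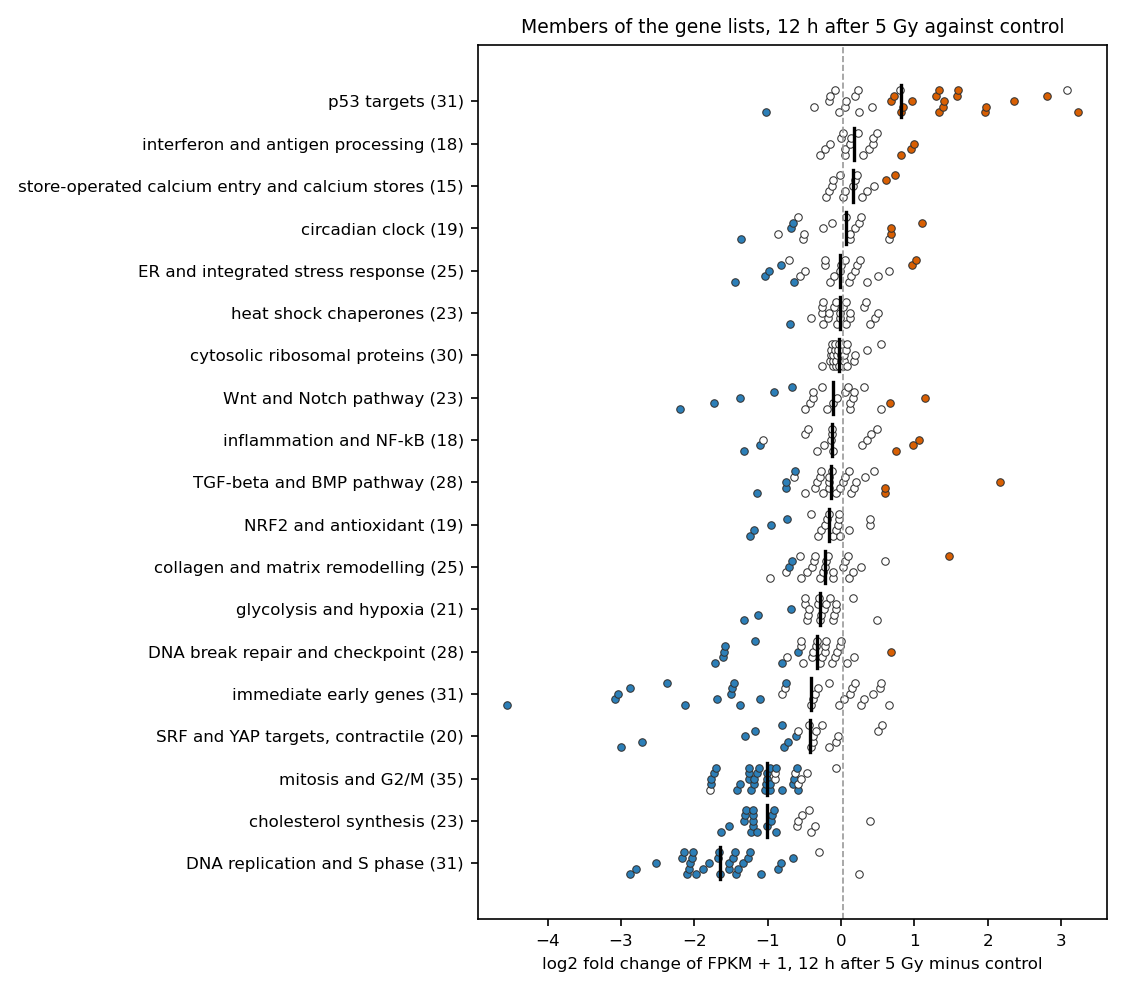
Log2 fold change, 12 h after 5 Gy against control, of each tested member of the 19 lists (number tested in brackets). Filled points passed the threshold, orange higher and blue lower, open points did not, the black bar is the median of the list and the dashed line the median of all genes (0.03). The S phase list has its median at -1.64, the mitosis and cholesterol lists at -1.01, and the p53 list at 0.81.

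Among p53 targets, 31 of 36 were tested, 17 were higher and 1 was lower (against 4.98% and 4.96% of all genes tested). The median log2 fold change was 0.81. For 21 of the 31, all exposed libraries lay above all controls, against 21.6% of all genes tested. With annotated transcripts only, 12 of 30 were higher, and with the most abundant transcript only, 13 of 31, with none lower in either. Gdf15, a secreted stress cytokine (chr16:20555395-20557978, Rnor_6.0), was at 1.25, 1.22 and 1.82 FPKM in the control and at 20.4, 19.2 and 26.4 in the exposed libraries. The groups did not overlap, and the exposed mean of 22.0 ± 3.84 (SD, n = 3) was 15.4 times the control mean of 1.43 ± 0.337 (log2 fold change 3.24, SE 0.14, adjusted p = 1.08e-07). Eda2r, a death receptor of the TNF family, was at 1.73, 2.15 and 1.14 in the control and at 17.1, 16.2 and 19.1 after 5 Gy, which is 10.4 times the control mean (log2 fold change 2.80, SE 0.19). Ephx1, an epoxide hydrolase, rose from 128 to 148 FPKM in the controls to 525 to 577 in the exposed libraries (log2 fold change 1.97, SE 0.11), and its most abundant transcript alone did not pass (1.24, adjusted p = 0.109).

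Other p53 targets that rose act on growth and the cell cycle. Ccng1, which encodes cyclin G1 (chr10:25903911-25910325), was at 112, 103 and 116 FPKM in the control and at 429, 436 and 433 in the exposed libraries. The spread within each group was under 7 FPKM (SD), against a difference between means of 110.4 and 432 (log2 fold change 1.96, SE 0.08, adjusted p = 5.91e-08). Plk2, a polo-like kinase, was 3.47 times the control mean, Psrc1, which binds spindle microtubules, 3.24 times, and Zmat3, an RNA-binding zinc finger protein, 2.74 times. Zmat3 had a log2 fold change of 1.39, which was 0.24 and did not pass when only annotated transcripts were summed. Sesn2, a sestrin that restrains mTORC1, rose from 19.8 ± 2.28 to 39.6 ± 2.39 FPKM.

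Cdkn1a (chr20:6348300-6358864), which encodes p21, was at 52.1, 31.6 and 56.8 FPKM in the control and at 189, 171 and 410.2 in the exposed libraries. All exposed libraries lay above the controls, and exposed replicate 3 lay far above the other two (log2 fold change 2.36, SE 0.33, adjusted p = 0.000367). The libraries also differed in which transcript model held the FPKM. In replicate 3, the annotated model of 825 bases held 403 FPKM, and in replicates 1 and 2 it held 23.3 and 0.00464, with most of the rest in assembled models of 1867 and 1890 bases. When the FPKM of each model were multiplied by its length in kilobases and then summed, the exposed libraries were at 333, 328 and 350.1 and the controls at 45.1, 50.9 and 48.3. This setting was chosen after seeing the data. The means were then 48.1 ± 2.91 and 337 ± 11.7, and the log2 fold change 2.78 (SE 0.12, adjusted p = 5.20e-08). With annotated transcripts only, or with the most abundant transcript only, the log2 fold change was -0.46 or -0.50 and did not pass the threshold.

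Regulators of p53 and of its damage signal were mixed. Mdm2, the ubiquitin ligase that degrades p53, was at 22.7, 23.2 and 26.7 FPKM in the control and at 67.7, 62.7 and 52.8 after 5 Gy, without overlap (2.53 times, log2 fold change 1.30, SE 0.17, adjusted p = 0.000203). Tp53inp1, a cofactor of p53, was 3.10 times the control mean. Ppm1d, the phosphatase that switches off ATM signaling, had a log2 fold change of 0.07 and did not pass. Atm had a log2 fold change of 0.00 (adjusted p = 0.996).

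Among genes of cell death, the receptor Fas was 2.91 times the control mean, and Bax, which permeabilizes mitochondria, rose from 44.7 to 50.8 FPKM to 79.5 to 93.5 (log2 fold change 0.84). Phlda3, an inhibitor of Akt, was 2.53 times the control mean, Pidd1 had a log2 fold change of 0.72 and Ei24 of 0.81. Pmaip1, which encodes Noxa, was at 14.2 ± 2.60 and 14.5 ± 8.08 FPKM and did not pass. Aen, a nuclease of apoptosis, was at 0.514, 1.65 and 0.0124 FPKM in the control and at 32.2, 0.847 and 39.0 in the exposed libraries. Exposed replicate 2 lay within the control range, and the adjusted p was 0.0544. Without that library the log2 fold change was 4.51 (adjusted p = 0.00211). Aen shares its locus with Isg20, so that its FPKM by name may be incomplete.

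Repair genes of the p53 list did not move together. Xpc, which recognizes bulky lesions, rose from 10.8 ± 1.07 to 18.0 ± 3.09 FPKM (log2 fold change 0.68). Its partner Ddb2 was at 2.96 to 3.79 in the control and 3.27 to 3.64 in the exposed libraries, with overlap (adjusted p = 0.853). Polh and Polk, polymerases that copy past lesions, had log2 fold changes of -0.03 and 0.25. The antiproliferative gene Btg2 was at 13.2, 13.8 and 17.2 FPKM in the control and at 15.7, 14.0 and 9.92 after 5 Gy, again with overlap (adjusted p = 0.526). Gadd45a had a log2 fold change of -0.36 and did not pass. Plk3, a stress kinase that is also an immediate early gene, was the member that fell, from 14.3 ± 2.01 to 6.63 ± 1.66 FPKM.

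**Figure D2:**
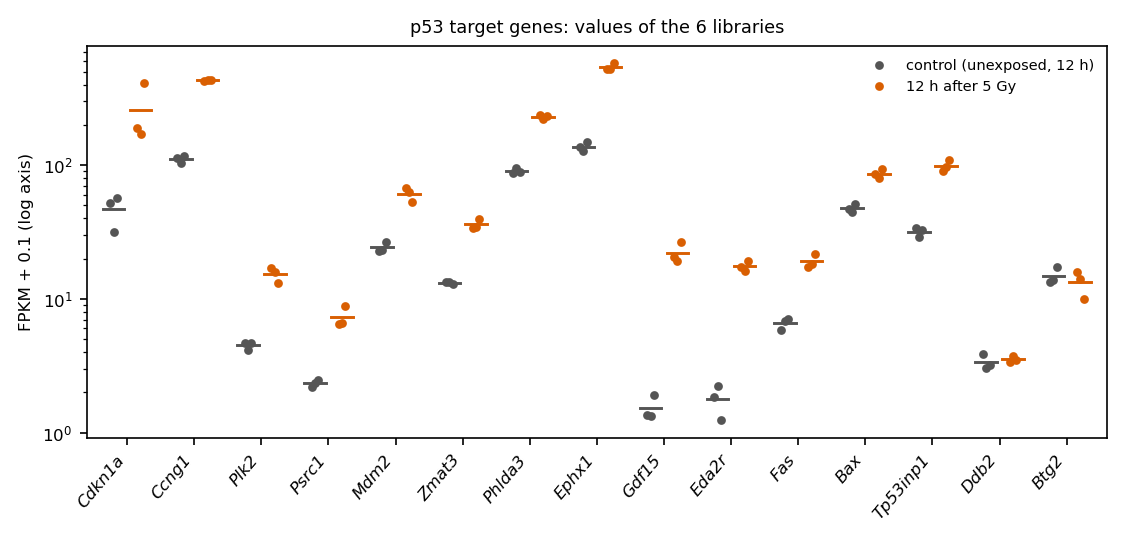
FPKM + 0.1 (log axis) of 15 p53 targets in the 3 control libraries (grey) and the 3 libraries 12 h after 5 Gy (orange), with points for libraries and bars for means. Ccng1 has its exposed libraries between 429 and 436 FPKM, Cdkn1a has 1 exposed library above the other 2 at 410.2 FPKM, and the groups overlap for Ddb2 and Btg2.

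DNA replication genes had the lowest median of the 19 lists. Of 31 tested in the S phase list, 29 were lower and none higher (against 4.96% lower among all genes), and the median log2 fold change was -1.64. For 29 all exposed libraries lay below all controls, against 16.9% of all genes tested. Rrm2, the regulated subunit of ribonucleotide reductase (chr6:43884678-43890818), was at 46.5, 64.8 and 72.3 FPKM in the control and at 7.99, 9.53 and 5.04 in the exposed libraries. The exposed mean was 12.3% of the control mean (log2 fold change -2.88, SE 0.36, adjusted p = 0.000148). Uhrf1, which carries DNA methylation through replication, was at 17.5, 22.2 and 21.4 and at 2.42, 2.30 and 1.57 FPKM, 10.3% of the control mean. Pclaf, a PCNA-binding protein, fell to 10.1% of the control mean, with 32.5, 37.6 and 53.4 FPKM before and 5.72, 4.77 and 1.95 after.

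The subunits of the MCM helicase fell in parallel. Mcm5, whose promoter window is printed above with 2 E2F matches, was at 21.1, 26.8 and 26.1 FPKM in the control and at 4.86, 3.89 and 2.04 after 5 Gy, with no overlap (14.6%, log2 fold change -2.53, SE 0.24, adjusted p = 2.44e-05). Mcm3, Mcm6, Mcm4 and Mcm2 were at 19.2%, 21.8%, 22.0% and 29.7% of the control means. Of the licensing factors that load this helicase, Cdt1 fell from 9.20 ± 1.31 to 1.41 ± 0.565 FPKM and Cdc6 from 3.58 ± 0.566 to 0.1303 ± 0.104. Ccne1, the cyclin of S phase entry, was at 17.9% of the control mean. With the most abundant transcript only, Mcm4 (-1.98, adjusted p = 0.18) and Ccne1 (-1.25, adjusted p = 0.0942) did not pass.

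Genes of nucleotide supply and of the replication fork fell less evenly. Tk1, thymidine kinase, was at 28.3, 37.8 and 36.8 FPKM in the control and at 7.60, 8.26 and 4.89 after 5 Gy (20.2%). Pcna, the sliding clamp, which is also a known p53 target, was at 90.8, 118 and 131 and at 41.3, 37.8 and 45.8 FPKM (36.7%, log2 fold change -1.41, SE 0.11). Tyms, thymidylate synthase, was at 25.3, 27.4 and 32.7 FPKM in the control and at 33.6, 34.4 and 33.4 after 5 Gy, above all controls but without passing the threshold (adjusted p = 0.0589). Gins2, a subunit of the active helicase, had overlapping groups (log2 fold change -0.30, adjusted p = 0.548). Tyms and Gins2 were the 2 members that did not pass. With any 1 library left out, 28 or 29 members were lower, and with annotated transcripts only, 23 of 29.

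In the mitosis list, 35 of 36 genes were tested, and 27 were lower and none higher (against 4.96% lower among all genes). The median log2 fold change was -1.01. All 35 log2 fold changes were negative, and for 32 the exposed libraries all lay below the controls (against 16.9% of all genes tested). Ccna2, cyclin A2, was at 25.5, 34.0 and 35.5 FPKM in the control and at 9.46, 9.02 and 7.04 after 5 Gy (26.9%, log2 fold change -1.78, SE 0.26, adjusted p = 0.000537). Ttk, with the CHR match shown above, was at 7.64, 8.48 and 10.2 and at 2.54, 1.82 and 1.54 FPKM (22.4%). Aurkb, the kinase of the chromosomal passenger complex, was at 24.6% and the proliferation marker Mki67 at 25.3% of the control mean. The groups did not overlap for any of these 4 genes. The most abundant transcript alone did not pass for Ttk (-1.3, adjusted p = 0.311) or Mki67 (-0.75, adjusted p = 0.269).

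The falls of other mitotic genes were smaller. Plk1, polo-like kinase 1, was at 46.7% of the control mean, Cdc20, the activator of the anaphase-promoting complex, at 49.7%, and Top2a, topoisomerase II, at 42.3%. Ccnb1, cyclin B1, was at 21.6, 29.0 and 31.1 FPKM in the control and at 18.2, 21.2 and 12.8 after 5 Gy. The groups did not overlap, with exposed replicate 2 just below control replicate 1, and the difference did not pass the threshold (63.9%, log2 fold change -0.63, SE 0.26, adjusted p = 0.114). Cdk1, the kinase it activates, was at 38.2, 45.6 and 57.2 and at 24.0, 21.7 and 13.7 FPKM (42.1%, adjusted p = 0.0113). Without control replicate 3 its adjusted p was 0.0519, and without exposed replicate 3 it was 0.0539. The count of the whole list depended on the same libraries. It was 16 without exposed replicate 3 and 18 without control replicate 3, with medians of -0.89 and -0.90, and 15 of 29 with annotated transcripts only.

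Of genes for DNA break repair and checkpoints, 28 of 30 were tested, 7 were lower and 1 higher, with a median of -0.33. Exo1, a nuclease that resects breaks, was at 2.24, 2.78 and 2.86 FPKM in the control and at 0.214, 0.237 and 0.173 FPKM, without overlap (7.93%, log2 fold change -1.58, SE 0.16, adjusted p = 3.08e-05). Brca1, which acts in homologous recombination, fell from 3.29 ± 0.477 to 0.901 ± 0.246 FPKM, Fancd2 to 27.7% of the control mean, and Rad54l and Chek2 had log2 fold changes of -0.80 and -0.59. Another, Mdc1, shares its locus with another gene name, which leaves its level uncertain. Lig4, the ligase of end joining, was the member that rose, from 6.73 ± 1.14 to 11.6 ± 3.14 FPKM (log2 fold change 0.68). No member of the list was higher without exposed replicate 1, without control replicate 2 or 3, or with only the 2 groups in the fit.

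Immediate early genes, the transcription factors and phosphatases that growth factors induce within minutes, fell in part. Of 31 tested, 13 were lower and none higher, with a median of -0.41, and 10 of the 31 had positive values. Egr3, a zinc finger transcription factor, was at 21.8, 25.5 and 29.9 FPKM in the control and at 0.145, 0.0806 and 0.167 in the exposed libraries, the largest fall among named genes with a mean of at least 5 FPKM (0.508%, log2 fold change -4.55, SE 0.21, adjusted p = 1.11e-07). Egr2 (chr20:22454463-22459025, Rnor_6.0), with the CArG box shown above, was at 4.68, 4.65 and 5.36 and at 0.153, 0.137 and 0.112 FPKM (2.73%). Egr1 was at 56.7, 62.4 and 59.4 and at 11.3, 7.46 and 2.86 FPKM (12.1%). The groups lay far apart for all of them, and for Egr1 exposed replicate 3 was the lowest.

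The orphan nuclear receptor Nr4a1 was at 33.6, 36.6 and 38.6 FPKM in the control and at 6.56, 4.16 and 2.31 after 5 Gy (12.0%, log2 fold change -2.88, SE 0.29). Fos was at 9.55, 9.75 and 11.4 and at 2.43, 1.67 and 0.839 (16.1%), Junb at 31.0% and Jun at 33.6% of the control mean. Srf, which encodes the factor that binds the CArG box, fell from 42.0 ± 0.576 to 14.2 ± 1.65 FPKM (log2 fold change -1.503). Dusp2, a MAP kinase phosphatase, was at 2.38% of the control mean. Its relative Dusp1 was at 81.5, 87.2 and 101 in the control and at 104, 83.5 and 89.7 after 5 Gy, with full overlap (adjusted p = 0.889), and Myc had a log2 fold change of 0.28 (adjusted p = 0.52). Ier5, which acts on heat shock factor, had an adjusted p of 0.00032 with a log2 fold change of 0.53, below the fold threshold.

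The targets of SRF and YAP, which report on the actin cytoskeleton, included 8 lower of 20 tested and none higher (median -0.42). Ccn1, a matricellular protein that cells secrete, was at 87.4, 72.9 and 102 FPKM in the control and at 13.9, 10.99 and 6.36 after 5 Gy (11.9%, log2 fold change -3.00, SE 0.28, adjusted p = 1.89e-05). Tgfb1i1 and Actn1, proteins of focal adhesions and actin bundles, were at 37.3% and 43.7%, and Ccn2, Zyx, Vcl and Tpm1 had log2 fold changes of -0.81, -0.77, -0.72 and -0.61. The receptor Tnfrsf12a was at 55.4, 81.9 and 102 FPKM in the control and at 23.8, 12.3 and 3.71 after 5 Gy (log2 fold change -2.76, adjusted p = 0.0124). Its fall did not pass the threshold without control replicate 3 (-2.56) or without exposed replicate 3 (-2.11).

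Cholesterol synthesis fell along its length. Of 23 genes, 16 were lower and none higher (against 4.96% lower among all genes), and the median was -1.01. For 22 the exposed libraries all lay below the controls, against 16.9% of all genes tested. With annotated transcripts only, 11 of 22 were lower, and with the most abundant transcript only, 11 of 23. Insig1 (chr4:342302-350515), whose promoter window is printed above, was at 156, 199 and 195 FPKM in the control and at 69.5, 65.8 and 42.6 after 5 Gy (32.4%, log2 fold change -1.63, SE 0.27, adjusted p = 0.00127). Hmgcs1, an early enzyme of the pathway, was at 42.9% of the control mean, and did not pass with annotated transcripts only (-1.27, adjusted p = 0.208). The later enzymes Mvd, Cyp51 and Nsdhl were at 38.0%, 34.9% and 39.4%, and Sqle fell from 100.9 ± 7.62 to 43.2 ± 10.0 FPKM.

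The factors that drive these enzymes moved less. Srebf1 and Srebf2 had log2 fold changes of -0.58 and -0.36, with adjusted p of 0.0236 and 0.0158, below the fold threshold. Srebf1 passed without exposed replicate 3 (-0.7, adjusted p = 0.0195) and without control replicate 3 (-0.73, adjusted p = 0.0118). It also passed with a pseudocount of 0.1 (-0.6, adjusted p = 0.0289). Insig2, the partner of Insig1 that is regulated apart from it, was the member with a positive value, at 0.40. Outside the list, the fatty acid desaturases fell further. Fads1 (chr1:226234074-226249138) was at 43.9, 58.7 and 49.1 FPKM in the control and at 10.9, 9.92 and 8.05 after 5 Gy (19.0%, log2 fold change -2.28, SE 0.20, adjusted p = 1.28e-05), and Fads2 was at 23.9%. With annotated transcripts only, the log2 fold change of Fads2 was -0.81 in place of -2.03 and did not pass (adjusted p = 0.17). Abca1, which exports cholesterol and is induced by sterols, was at 7.38, 5.84 and 5.77 and rose to 15.9, 19.7 and 19.3 FPKM (2.89 times, log2 fold change 1.399, SE 0.18). The desaturases and Abca1 were named after their values were seen.

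**Figure D3:**
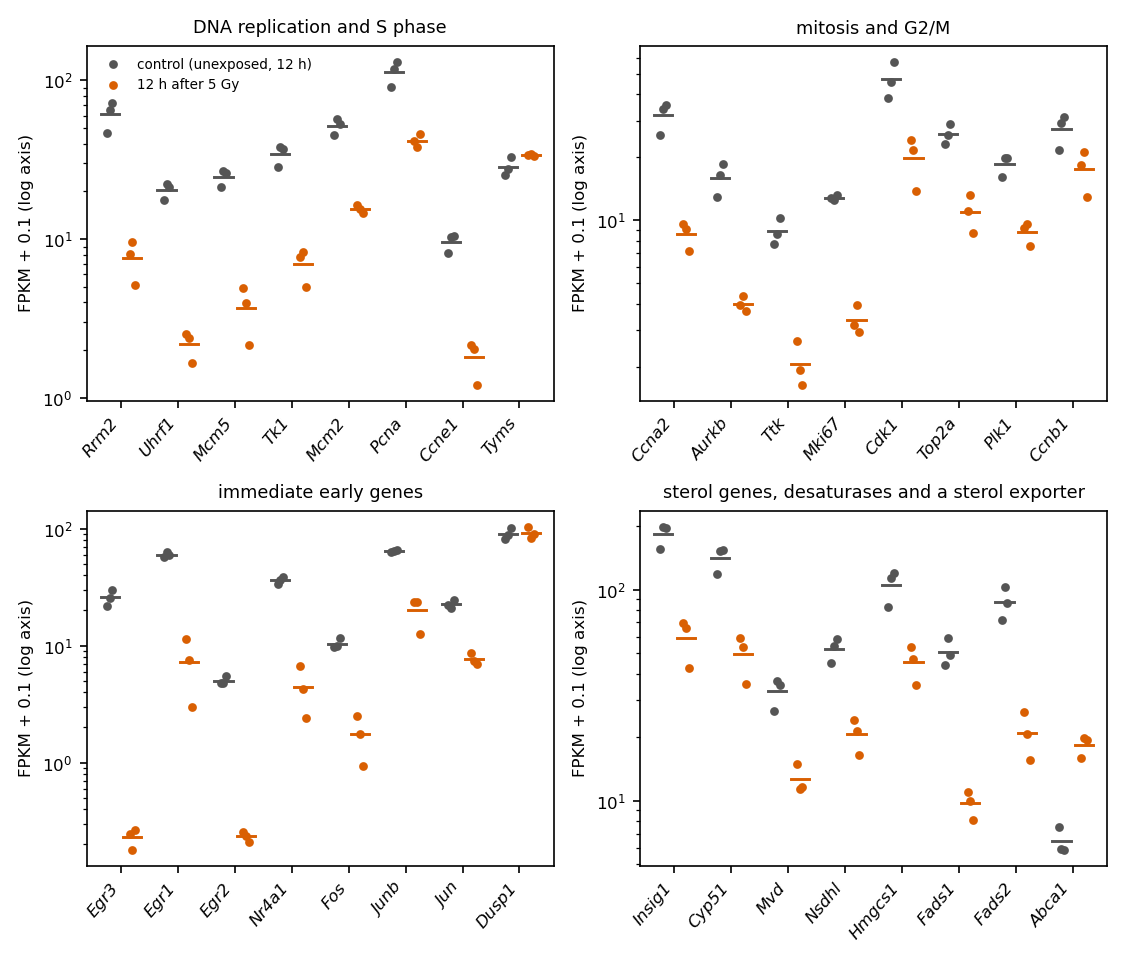
FPKM + 0.1 (log axis) of 8 genes each of S phase, mitosis, immediate early response, and sterol and lipid metabolism in the 3 control libraries (grey) and the 3 libraries 12 h after 5 Gy (orange), with bars for means. Most groups are separate with the exposed libraries lower. The exceptions are Tyms and Abca1, where they are higher, and Dusp1, where they overlap.

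Lists of stress responses were mixed. None of 23 heat shock genes was higher and 1, Dnajb1, was lower (median -0.02). In the list of ER and integrated stress response, 2 of 25 genes were higher and 5 lower. Ddit4, an inhibitor of mTORC1, was at 49.1, 44.6 and 34.5 FPKM in the control and at 84.8, 86.2 and 91.2 after 5 Gy (2.04 times). Atf4, the main factor of this response, was at 35.9% of the control mean, but it shares its locus with Mief1. Its targets Ppp1r15a and Slc7a5 were at 46.5% and 47.8%. Of 19 NRF2 and antioxidant genes, 4 were lower. Hmox1, heme oxygenase, was at 139, 138 and 150.0 FPKM in the control and at 63.8, 69.9 and 53.5 after 5 Gy (43.9%), and the metallothionein Mt1 was at 41.5%.

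In the inflammation list, 3 of 18 genes were higher and 2 lower. Cebpd, a transcription factor of the acute phase, was 2.15 times the control mean. The cytokine Lif was 3.87 times its control mean at low levels (0.506 and 1.96 FPKM), though its most abundant transcript did not pass (0.79, adjusted p = 0.189). The chemokines Ccl2 and Cxcl1 were at 9.91% and 14.9%, also at low levels. Ccl2 averaged 1.97 and 0.196 FPKM, and Cxcl1 1.67 and 0.249. Of 18 genes of the interferon response, 3 were higher and none lower, a share of 16.7% against 9.94% of all genes tested. Isg15, a ubiquitin-like modifier, was at 2.25, 2.33 and 2.20 FPKM in the control and at 5.997, 4.49 and 6.13 after 5 Gy (2.45 times), and Irf7 was 1.86 times the control mean, with a log2 fold change of 0.81 that was -0.75 with annotated transcripts only. The third, Tap1, shares its locus with another gene name.

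Signaling genes of the Wnt and Notch pathways changed in both directions, with 2 of 23 higher and 5 lower. Fzd7, a Wnt receptor (chr9:66305243-66310045), was at 60.6, 63.8 and 47.8 FPKM in the control and at 12.1, 12.7 and 10.4 after 5 Gy (20.4%, log2 fold change -2.19, SE 0.15, adjusted p = 2.04e-06). The ligand Wnt2 was at 18.2%. Of the Notch genes, the receptor Notch1 was 2.50 times the control mean, while the target Hes1 was at 7.84, 5.998 and 8.68 and at 2.21, 2.07 and 2.43 FPKM (29.8%). In the TGF-beta and BMP list, 3 of 28 were higher and 4 lower. Without exposed replicate 3 or control replicate 2, 2 were lower, and without control replicate 3, 1 was higher. The ligand Gdf6 was at 3.71, 3.93 and 3.94 and at 24.5, 22.2 and 16.6 FPKM (5.47 times, log2 fold change 2.17, SE 0.12), and Tgfb1 was at 43.4% of the control mean.

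Of 19 clock genes, 3 were higher and 3 lower (median 0.07). Dbp, an output factor of the clock, was 2.27 times the control mean, and Ciart, a repressor, was at 31.1%, with a log2 fold change of -1.37 that was -0.15 (adjusted p = 0.858) with annotated transcripts only. Without exposed replicate 3, or without control replicate 3, 1 clock gene was higher. Arntl, which encodes the core factor BMAL1, showed a shift between transcript models. A model of 3235 bases was at 6.14, 4.73 and 5.81 FPKM in the control and at 15.3, 15.2 and 11.9 after 5 Gy, while a model of 4254 bases was at 6.99, 8.01 and 6.57 and at 0.527, 0.663 and 0.330. The sum for the gene had a log2 fold change of -0.50 (adjusted p = 0.00852), below the fold threshold. These models were singled out after their values were seen, and assembled models may split reads differently between libraries.

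In the glycolysis list, 3 of 21 genes were lower, the phosphofructokinase Pfkp at 35.2%, hexokinase 2 (Hk2) at 41.7% and Slc2a1 at 60.2% of the control mean. These 3 are 14.3% of the list, against 9.94% of all genes tested. With annotated transcripts only, 19 genes of the list were tested and none was lower. In the list of collagens and matrix remodelling, 1 of 25 was higher and 2 lower. That is 12.0%, against 9.94% of all genes tested. Mmp2, a gelatinase, was at 92.1, 90.2 and 91.5 FPKM in the control and at 269, 249.9 and 244 after 5 Gy (2.79 times, log2 fold change 1.47, SE 0.10, adjusted p = 1.87e-06). Col1a1 was at 61.8% of the control mean (log2 fold change -0.70). Without exposed replicate 3 its log2 fold change was -0.56, and no member of the list was lower.

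The store-operated calcium entry list, which holds the channel and sensor genes that refill calcium stores, had 2 of 15 genes higher and none lower, a share of 13.3% against 9.94% of all genes tested. Without exposed replicate 3, none of the 15 passed. Orai2, a channel subunit that the study follows (chr12:23544287-23564569), was at 3.34, 3.32 and 3.13 FPKM in the control and at 5.06, 5.36 and 6.31 after 5 Gy. The groups did not overlap, and the exposed mean was 1.71 times that of the control (log2 fold change 0.62, SE 0.10, adjusted p = 0.00136). Without exposed replicate 3, the log2 fold change was 0.54, below the fold threshold. Trpc1 had a log2 fold change of 0.74 (adjusted p = 0.0322), and did not pass without control replicate 2 or 3, nor without exposed replicate 2 or 3 (0.53 to 0.73, adjusted p of 0.0797 to 0.133). Orai1 ranged from 2.50 to 10.9 FPKM in the control and from 1.90 to 10.7 after 5 Gy, and the sensor Stim1 had a log2 fold change of 0.19 (adjusted p = 0.581).

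Several of the largest rises were outside the lists. Adam8, a membrane protease, was listed at 0 in all 3 controls and was at 17.0, 19.3 and 31.0 FPKM after 5 Gy, but it shares its locus with Tubgcp2 and another name. Abcb4, a phospholipid transporter, was at 28.4, 26.0 and 22.2 and at 159, 185 and 226 FPKM (7.43 times, log2 fold change 2.84, SE 0.21, adjusted p = 3.31e-06). Its most abundant transcript alone had a log2 fold change of -0.69 (adjusted p = 0.807). The phosphatase Ptprv, 4.56 times the control mean, had a log2 fold change of 2.09, which was 0.88 with annotated transcripts only (adjusted p = 0.822). Plcd4, a phospholipase C, was 14.6 times the control mean, with 1.06, 0.755 and 0.652 FPKM in the control and 9.09, 9.82 and 17.2 after 5 Gy. Sft2d2, a protein of vesicle transport, was 10.8 times and Hapln3, which links hyaluronan to proteoglycans, 5.33 times the control mean. The exposed libraries lay above all controls for each of these genes.

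Gas6, the ligand of the TAM receptors, was among the most abundant genes that rose, at 329.9, 392 and 363 FPKM in the control and at 1226, 1190.4 and 1044 after 5 Gy (3.19 times, log2 fold change 1.67, SE 0.15, adjusted p = 1.08e-05). Txnip, which binds thioredoxin and restrains glucose uptake, was at 91.2, 85.7 and 91.4 and at 236, 258 and 231 FPKM (2.70 times). Its groups lay far apart, but its adjusted p of 0.0231 rose to between 0.0516 and 0.0665 when any 1 of the 6 libraries was left out. Both were named after their values were seen. Of the rule's 24 genes with the largest changes, LOC100365839, AABR07021930.1, LOC100359539 and Rmi2 were 6.11 times, 4.44 times, 14.6% and 12.2% of the control mean. With annotated transcripts only, the log2 fold change of AABR07021930.1 was 0.34 in place of 2.02 and did not pass (adjusted p = 0.386). Its span, chr13:99277603-99346735, overlaps that of Ephx1, a p53 target described above (chr13:99271366-99335190). LOC100359539 is a near-copy of Rrm2, so reads may be split between them.

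To learn which changes depended on dose, 20 Gy was compared directly with 5 Gy at 12 h. Of the 17895 genes, 22 (0.123%) passed, 21 with higher FPKM after 20 Gy (0.117%) and 1 with lower (0.00559%). Gdf15 was at 20.4, 19.2 and 26.4 FPKM after 5 Gy and at 41.3, 48.1 and 39.5 after 20 Gy, without overlap (log2 difference 0.94, SE 0.14, adjusted p = 0.0243). Btg2, whose groups overlap between control and 5 Gy, was at 28.7, 29.2 and 22.9 FPKM after 20 Gy (log2 difference 0.99, adjusted p = 0.033). Mdm2 averaged 99.7 ± 11.2 FPKM after 20 Gy against 61.0 ± 7.60 after 5 Gy, which did not pass (adjusted p = 0.169). Cdkn1a had a log2 difference of 1.404 (adjusted p = 0.155), or of 0.67 (adjusted p = 0.0424) when its models were weighted by length.

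Among the genes that passed were several of the cell cycle. Uhrf1 averaged 20.4 FPKM in the control, 2.10 after 5 Gy and 6.79 ± 1.23 after 20 Gy (log2 difference between doses 1.33, SE 0.19, adjusted p = 0.0213). Mki67 was at 3.05, 3.82 and 2.82 FPKM after 5 Gy and at 8.23, 9.05 and 7.62 after 20 Gy (1.14, adjusted p = 0.0318). With any 1 library of these doses left out, Mki67 did not pass (adjusted p of 0.054 to 0.173). Pbk, a mitotic kinase, reached 6.86 ± 1.43 after 20 Gy (1.56, adjusted p = 0.00435), and E2f7, a repressor of E2F targets, 1.41 ± 0.0526 (1.06, adjusted p = 0.00435). Rrm2 averaged 33.3 ± 8.29 FPKM after 20 Gy, a log2 difference of 2.02 that did not pass (adjusted p = 0.0552). In the S phase list, 30 of 31 genes had a positive difference, with a median of 0.51, and in the mitosis list 30 of 35, with a median of 0.31, against a median of -0.01 over all genes. The median of the mitosis list was 0.19, with 25 of 35 positive, without 5 Gy replicate 3, and 0.55 without 20 Gy replicate 3.

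The cholesterol list had a median difference of -0.01, whose sign changed with the library left out (-0.15 to 0.17), and Insig1 was at 85.4, 64.0 and 43.0 FPKM after 20 Gy, which overlaps the range after 5 Gy. Fas differed by 0.01 on the log2 scale (SE 0.09). The p53 list had a median of 0.23, with 22 of 31 genes positive. The count of 22 genes was 5 without any 1 library of the 5 Gy group, 6 and 8 without 20 Gy replicate 1 or 2, and 29 without 20 Gy replicate 3. With only the groups compared in the fit, none of the 22 passed.

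**Figure D4:**
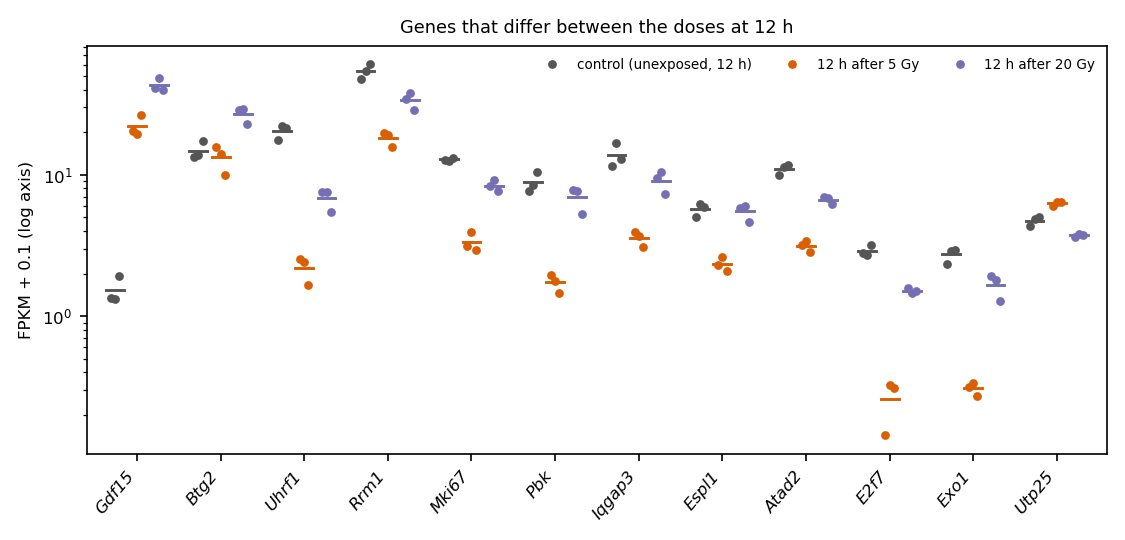
FPKM + 0.1 (log axis) of 12 genes in the 3 libraries each of control (grey), 5 Gy at 12 h (orange) and 20 Gy at 12 h (purple), with bars for means. For 11 genes the 20 Gy libraries all lie above the 5 Gy libraries, and for Utp25 they lie below (a direction that turned with its most abundant transcript alone).

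To learn how far the 12 h state had settled, the cells 24 h after 5 Gy were compared directly with those at 12 h. No unexposed culture of 24 h was analysed here, so that time after irradiation and time in culture cannot be told apart. In total, 6508 genes (36.4%) passed, 3056 higher (17.1%) and 3452 lower (19.3%) at 24 h. The S phase list was split at 24 h, with 5 genes higher and 7 lower of 31, close to the share over all genes, and with a median of -0.11. Rrm2, Tk1, Mcm5 and Uhrf1 were lower still, with log2 differences of -1.86, -1.11, -0.99 and -0.79, while Ccne2 (1.404), Cdt1 (1.12) and Ccne1 (1.001) were higher. Pcna was at 41.3, 37.8 and 45.8 FPKM at 12 h and at 40.7, 40.8 and 38.7 at 24 h (log2 difference -0.05, SE 0.11), and Mcm2 differed by 0.05 (SE 0.13). The mitosis list was lower still at 24 h, with 32 of 35 genes lower and a median of -1.61. Ccnb1, which did not pass at 12 h, was at 18.2, 21.2 and 12.8 FPKM at 12 h and at 3.68, 3.80 and 3.94 at 24 h (-1.91, SE 0.26, adjusted p = 4.56e-05).

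The p53 list had 14 genes higher and 1 lower at 24 h than at 12 h (17.1% and 19.3% over all genes), with a median of 0.43. Mdm2 rose from 61.0 ± 7.60 to 201 ± 21.7 FPKM, Gdf15 from 22.0 ± 3.84 to 61.0 ± 1.18, and Btg2 was at 153, 151 and 131 FPKM at 24 h. Ccng1 was lower, at 295, 303 and 302 FPKM against 429, 436 and 433 (log2 difference -0.53, adjusted p = 8.57e-05), below the fold threshold. Orai2 was at 5.78, 6.02 and 6.10 FPKM at 24 h and differed by 0.09 (SE 0.10, adjusted p = 0.508).

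Genes of several stress groups were higher at 24 h than at 12 h. Over all genes, 17.1% were higher and 19.3% lower at 24 h. Of 31 immediate early genes, 18 were higher and 2 lower (median 1.15). Nr4a1 was at 6.56, 4.16 and 2.31 FPKM at 12 h and at 487, 420 and 314 at 24 h (log2 difference 6.31, SE 0.29, adjusted p = 6.13e-09), and Fos at 134, 140 and 137 at 24 h (5.75). Egr3 stayed low, at 0.0689, 0.144 and 0.179 FPKM. Dusp1 averaged 1796 ± 238 FPKM at 24 h (4.27). Of 23 heat shock genes, 17 were higher, with Hsph1 at 369 ± 46.7 FPKM (4.45), and of 25 genes of the ER and integrated stress response 16 were higher. Hmox1 was at 254 ± 20.9 FPKM (2.01). Cholesterol synthesis was lower again, with 17 of 23 genes lower (median -0.95) and Hmgcs1 at 11.8 ± 2.10 FPKM. Col1a1 was at 27.0 ± 3.51 FPKM (-3.51) and Txnip at 13.3 ± 5.21 (-4.16).

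**Figure D5:**
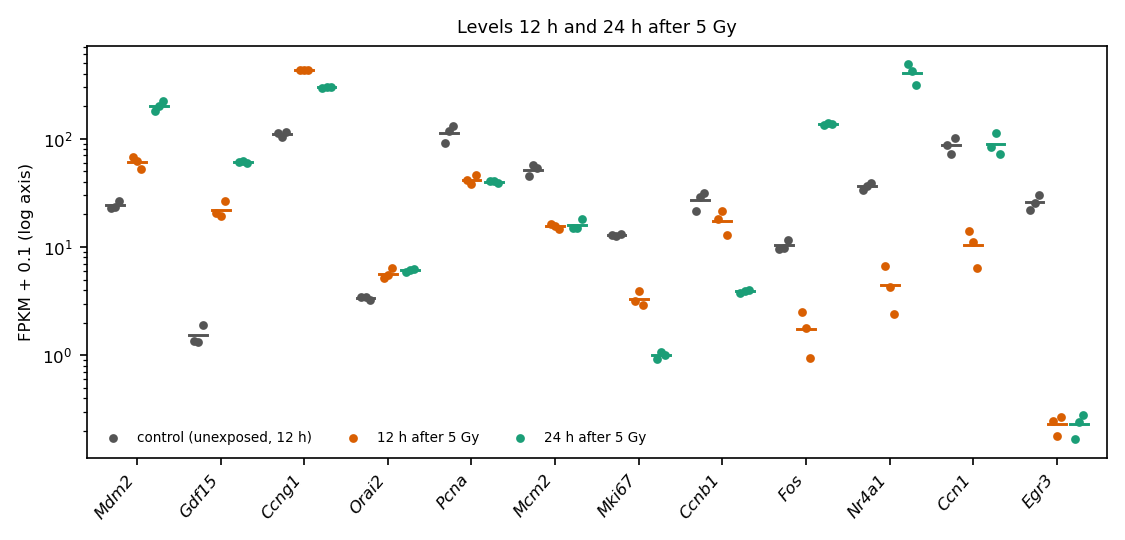
FPKM + 0.1 (log axis) of 12 genes in the 3 libraries each of control (grey), 5 Gy at 12 h (orange) and 5 Gy at 24 h (green), with bars for means. Fos and Nr4a1 are low at 12 h and above the controls at 24 h. Ccn1 is low at 12 h and near its control level at 24 h. Pcna, Mcm2, Egr3 and Orai2 are near their 12 h levels at 24 h, and Mki67 and Ccnb1 are lowest at 24 h.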

How the data were processed

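Messenger RNA of 15 libraries was sequenced as 150-base reads. The authors trimmed the reads with Trimmomatic, mapped them with HISAT2 2.0.13 to Rnor_6.0, assembled transcripts with StringTie 1.3.5 and deposited 1 table of FPKM per transcript (85322 transcripts, of which 44258 were assembled without a name). Kallisto counts and the edgeR results of the authors were not analysed here. For each gene name or unnamed locus, FPKM were summed, and 4738 transcripts at loci with several names (3.60% of the FPKM) were left out. Genes with a mean of at least 0.5 FPKM were tested on log2(FPKM + 1) with limma 3.58.1 in R 4.3.3, with 5 group means, 10 residual degrees of freedom, a prior on the variance that follows mean expression and Benjamini-Hochberg adjustment over 17895 genes (two-sided).

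Depth was inferred from low FPKM values, of which 76.8% to 79.7% were whole multiples of 1 read base (within 0.05 base), too few to recover reads, so no count model was used. The pipeline was tested on simulated data. Alternatives were other pseudocounts, filters, scalings, fits and transcript sums, the replicate number as a block and each library left out in turn.

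Named genes were the 12 largest rises and 12 largest falls that passed, averaged at least 5 FPKM over the 6 libraries and had groups without overlap, up to 4 called and 2 uncalled members per list, and Orai2. Others were added after their values were seen, among them most remaining members named with values. The members and lists were chosen with earlier results of these data known. Some results for single genes are left out here.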

Additional observations from a re-analysis of the deposited data

Results flagged for a closer look

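The results below were singled out because their change at 12 h differed between the 2 doses by the direct test. The test used limma on the log2(FPKM + 1) scale with the difference given as 20 Gy minus 5 Gy, over 3 libraries per dose. Among genes of replication, chromatin and repair, the differences were 1.33 for Uhrf1, 1.71 for LOC100359539, 0.85 for Rrm1, 1.08 for Exo1, 0.9 for Atad2, 1.14 for Aunip and 0.59 for Fancb. Among genes of mitosis, chromosome structure and proliferation, they were 1.14 for Mki67, 1.56 for Pbk, 0.99 for Espl1, 0.87 for Esco2, 0.77 for Ncapd3 and 1.15 for Iqgap3. E2f7, which represses E2F targets, differed by 1.06.

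Of p53 targets, Gdf15 differed by 0.94 and Btg2 by 0.99. The remaining genes were the integrin subunit Itgav at 0.6, the calcium pump regulator Pln at 0.62, Mllt11 at 1.03, which shares its locus with Gabpb2, Tmem216 at 0.62, the unnamed locus MSTRG.9590 at 1.27, and Utp25 at -0.63, the single gene lower after 20 Gy. The difference of Utp25 was 0.60 (adjusted p = 0.12) with its most abundant transcript alone. Itgav and Pln each passed in 3 of 17 other settings, and the difference of Itgav was 0.23 with annotated transcripts only. Esco2 and Tmem216 passed in 4 of 17, Fancb in 4 of 16 and Mki67 in 6 of 16. Btg2 and LOC100359539 passed in 7 of 17, Uhrf1 and Ncapd3 in 8 of 17 and Exo1 in 8 of 16. Gdf15, Espl1, Iqgap3 and Utp25 passed in 9 of 17 and Atad2 in 9 of 16. Rrm1 passed in 11 of 17, Mllt11 in 11 of 16 and E2f7 in 13 of 15. Pbk passed in 14 of 17, and Aunip and MSTRG.9590 in 15 of 16. The number of such genes fell to 5 without any 1 library of the 5 Gy group.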

How the results depend on the processing

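Of the 123 named genes that passed at 12 h, 86 kept the call under every alternative that tested them, and 37 lost it under at least 1. The fold change of at least 2 and the unadjusted p were not counted among these alternatives. Values that changed sign did so with the transcript of highest mean FPKM in place of the sum (Abcb4 -0.69, Cdkn1a -0.5, Tef -0.3, Trpc1 -0.35, Arntl 1.2, MSTRG.9590 -1.12, Tmem216 0.44) or with annotated transcripts only (Cdkn1a -0.46, Tef -0.3, Irf7 -0.75, Aldh1l1 -0.71, Tmem216 0.44), settings that leave out other models of the gene.

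The count of 1779 genes at 12 h became 588 with a fold change of at least 2 and 751 with annotated transcripts only, where 11310 genes were tested. It was 1465 to 1872 with 1 library left out. The count of 22 genes between doses became 12 with a pseudocount of 0.1, 48 with quantile normalization, 2 with only the groups compared in the fit, 11 with the most abundant transcript, 10 with a fold change of at least 2, 6 with annotated transcripts only, 34 with FPKM times transcript length and 361 with unadjusted p, and 5 to 29 with 1 library left out. The 2 genes that passed with only the groups compared were not among the 22. In that limma fit the adjusted p of the 22 ranged from 0.109 (E2f7) to 0.302 (Btg2), so their calls depend on the spread estimated from all 15 libraries. The count of 6508 genes between times became 2834 with a fold change of at least 2 and 2919 with annotated transcripts only, and 6253 to 6568 with 1 library left out. The cause was not tested. Annotated transcripts, transcript length and unadjusted p were chosen after seeing the data.

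Same-numbered control and exposed libraries did not deviate together (r of -0.0734, -0.00145 and -0.108 across genes). With the replicate number as a block, 1748, 16 and 6475 genes passed in the 3 comparisons, and of the named genes Trpc1 and Col18a1 lost the call. With 12 named genes losing the call without 1 library, 3 libraries per group limit what can be told, and not only for fold changes near the threshold. Tnfrsf12a (-2.56 and -2.11), Txnip (1.37 to 1.46) and Cdk1 (-1.07 and -0.99) lost the call on the adjusted p. Rescaling to TPM gave 58.4% of calls as higher, against 50.1%.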
